A study of Mus musculus with 96 samples.

Results

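Mitochondrial share is the percentage of a cell's gene counts that fall on transcripts of the mitochondrial genome, whose symbols start with mt-. Of the 96 cultured horizontal basal cells (HBCs) of this series, the 24 of highest share and the 24 of lowest share were chosen by this measured value and compared, and 48 cells were in neither group. HBCs are the reserve stem cells at the base of the olfactory epithelium (OE). The OE was dissected from wild type adult mice after methimazole, a drug that detaches the OE cells other than HBCs. HBCs were isolated, grown first on Tropoelastin and then on Fibronectin, and both daughter cells of 48 divisions were picked by mouth pipette. Polyadenylated RNA of each cell was captured on oligo-dT beads and sequenced with ERCC spike-in, a mix of synthetic RNAs, by the G&T-seq protocol. All 96 cells therefore share 1 genotype, injury and culture protocol, and no label names the animal or the dish of a cell, so the cells were treated as 1 sample and no difference was tested.

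The mitochondrial genome is a small circle that encodes some of the proteins of the respiratory chain and ATP synthase, the rRNAs of its own ribosome and a set of tRNAs. It is transcribed on both strands as long precursors that are cut at the tRNAs, and most of the resulting mRNAs receive a short poly(A) tail, which lets oligo-dT capture them. The remaining subunits of the same complexes are encoded in the nucleus, translated in the cytosol and imported. The factors that copy and transcribe the mitochondrial genome, such as Tfam and Polrmt, are nuclear products too.

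The share ranged from 2.37% to 3.84% in the 24 high-share cells, with a median of 2.64%, and from 1.12% to 1.69% in the 24 low-share cells, with a median of 1.49%. The groups cannot overlap, because this value chose them. The limits fell within a continuous range: the lowest high-share cell had 2.366% and the next cell below it 2.362%, and the highest low-share cell had 1.688% and the next above it 1.697%. The exact 95% interval of the share of any 1 cell was at most 0.0127 percentage points wide. Intervals of this kind cover counting error only, and the libraries carry no molecular identifiers.

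**Figure D1:**
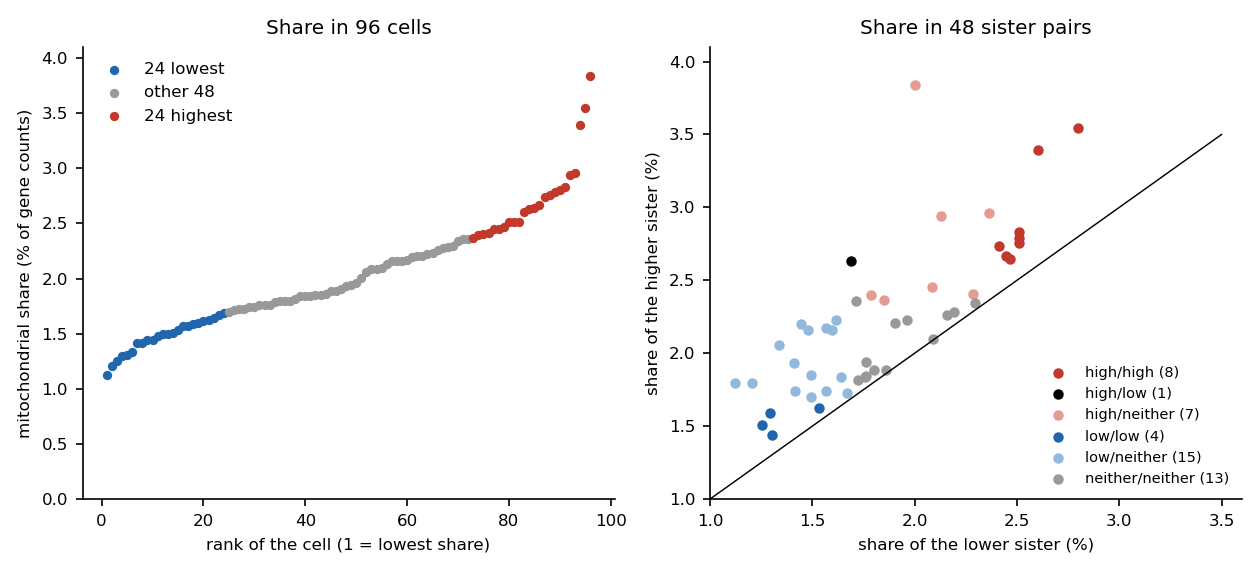
Left, mitochondrial share in percent of gene counts for the 96 cells, ranked from lowest to highest and coloured by group. Right, share of the higher against the lower sister of each of the 48 pairs, coloured by the groups of both sisters, with the number of pairs in parentheses and the line of equal shares; in 8 pairs both sisters were in the high-share group.

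Depth was close between the groups. Counts on genes ranged from 29780604 to 39210966 in high-share cells and from 32383016 to 41081195 in low-share cells, with medians of 12754 and 12898.5 genes counted. The ERCC share had medians of 3.16% and 2.88%. Over the 96 cells the Spearman correlation of the mitochondrial share was -0.16 with counts on genes, -0.15 with genes counted and 0.18 with the ERCC share. These correlations describe 96 points that share sisters and sets, and they carry no p. Mitochondrial counts per ERCC count had medians of 0.833 in the high-share and 0.460 in the low-share group, a ratio of 1.81, whereas nuclear counts per ERCC count had medians of 29.9 and 33.3, a ratio of 0.896. Of the high-share cells, 9 lay above every low-share cell in mitochondrial counts per ERCC count.

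Cell 4-2 stood apart among the high-share cells. CPM are the counts of a gene scaled to the same total of 1000000 gene counts in each cell. Cell 4-2, with the highest share (3.84%), had 175 CPM of Krt5 and 17.9 CPM of Krt14, the lowest of the 24 high-share cells for both, and 34.6% of its counts on its 100 most counted genes. Of 65 nuclear genes named below as higher or lower, 57 were called the same way without this cell, and the other 8 are marked where they appear. Low-share cell 46-1 had 31.4% of its counts on its 100 most counted genes, the highest of the low-share cells. A comparison without cell 46-1 alone was not run. The HBC markers Krt5, Krt14 and Trp63 had counts in all 48 chosen cells. Their summed level had a median of 5151 CPM (229 to 11671) in high-share cells and 8847 CPM (3544 to 12900) in low-share cells. Of 31 markers of other olfactory, stromal, endothelial, immune and blood cells, 9 were at 0 in both groups (Kit, Neurod1, Ermn, Cyp2g1, Sec14l3, Dcn, Cdh5, Adgre1 and C1qa). The summed level of the 31 had a median of 18.5 CPM (0.103 to 287) in high-share and 7.32 CPM (0.164 to 167) in low-share cells. The part of these markers in the results below was not tested.

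Sister cells had similar shares. The intraclass correlation of the share over the 48 pairs was 0.514, and the higher sister had a median of 1.15 times the share of the lower one (1.00 to 1.92). Both sisters were in the high-share group in 8 pairs and both in the low-share group in 4 pairs, while 1 pair, number 45, had a sister in each. High-share cells came from 16 pairs and low-share cells from 20 pairs, so that the cells of a group are not independent of one another. The deposited data name 12 sets of 8 cells, and whether a set was handled together is not stated. Set 11 gave 6 cells to the high-share group, and set 9 gave 5 to the low-share group and 0 to the other. Between sets lay 19.9% of the variance of the share, and between pairs 75.3%. Each set holds whole pairs, so that differences between pairs alone place some variance between sets. A difference between sets was not tested.

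All 13 mitochondrial protein genes had a higher mean CPM in high-share cells, which the choice of cells largely fixes. The ratio of means ran from 1.59 for mt-Atp8, a subunit of ATP synthase, to 2.17 for mt-Co1, the catalytic subunit of complex IV. mt-Co1 ranged from 8099 to 18056 CPM in high-share cells (median 10283) and from 2591 to 7491 CPM in low-share cells (median 5162). It therefore made up a larger part of the mitochondrial counts, 39.3% ± 4.38 (SD over 24 cells) in high-share and 33.7% ± 5.72 in low-share cells. mt-Co3, another subunit of complex IV, also took a larger part, 6.11% ± 0.718 against 5.51% ± 1.05. The complex I subunit mt-Nd1 took a smaller one, 15.6% ± 2.85 against 17.7% ± 4.33. Since abundant genes weigh most in the share, the groups were chosen again for each gene on the remaining mt- rows. The ratio was then 1.89 for mt-Co1, 2.04 for mt-Co3 and 1.48 for mt-Nd1, and 1.59 to 1.76 for the other 10 protein genes. For mt-Rnr2, the large rRNA, it was 1.32, against 1.77 in the groups chosen on all rows. The rRNA genes took a median of 5.01% of mitochondrial counts in high-share and 4.92% in low-share cells.

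**Figure D2:**
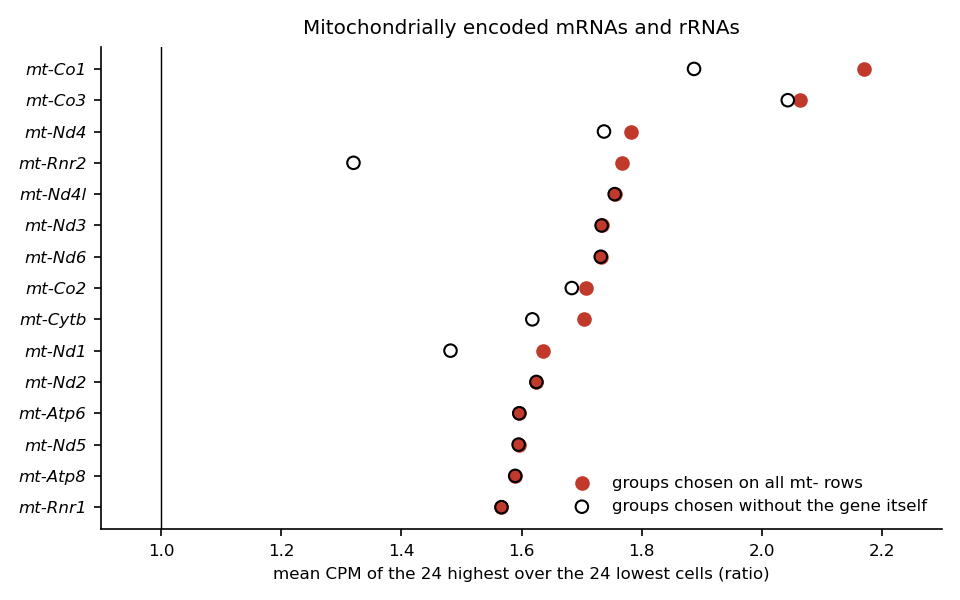
Ratio of the mean CPM of the 24 highest to that of the 24 lowest cells for the 13 mitochondrial protein genes and 2 rRNAs. Filled points use groups chosen on all mt- rows, open points groups chosen without the gene itself; mt-Co1 and mt-Co3 lie highest in both, and mt-Rnr2 moves most.

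Stretches of mitochondrial DNA have been copied into nuclear chromosomes, and reads from a recent copy cannot be told from mitochondrial reads. A block of such copies on chromosome 1 is annotated as unprocessed pseudogenes. Gm28437 (chr1:24613189-24613971, GRCm38, minus strand) was identical to mt-Co3 over all of its 783 bases, and Gm10925 (chr1:24613974-24614651) to mt-Atp6 over 678 bases. An older copy on chromosome 2, Gm13340 (chr2:22588103-22589647), differed from mt-Co1 at 37 of 1545 bases. The stretches below come from GENCODE vM21 transcripts on GRCm38 and are shown because they decide whether a read can be placed. They lie at chr1:24613550-24613610 (minus strand) and MT:8968-9028 for the first pair and at chr2:22589564-22589624 (minus strand) and MT:5351-5411 for the second. Capitals mark bases that differ, which are C31A and A37G in the second pair, counted from 1 at the 5′ end of the stretch, with the mitochondrial base first.
Gm28437: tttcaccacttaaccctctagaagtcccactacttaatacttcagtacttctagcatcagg
mt-Co3: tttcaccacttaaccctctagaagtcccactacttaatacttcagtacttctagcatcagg
Gm13340: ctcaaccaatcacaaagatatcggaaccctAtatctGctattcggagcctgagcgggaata
mt-Co1: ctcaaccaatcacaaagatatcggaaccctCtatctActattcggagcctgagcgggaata

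The identical copies followed their mitochondrial genes. Gm28437 ranged from 1206 to 2709 CPM in high-share cells (median 1556) and from 406 to 1201 CPM in low-share cells (median 819), and the groups did not overlap. Its ratio of means was 2.06, as for mt-Co3, and its counts were 0.968 to 1.04 times those of mt-Co3 in each of the 96 cells. Gm10925 had a ratio of 1.59 against 1.60 for mt-Atp6, and it was the only other nuclear-annotated gene whose groups did not overlap. Gm13340, at a median of 22.8 CPM over all cells, was 1.96-fold higher. Of 11 copies measured, 9 were higher in high-share cells and 0 lower, with a median log2 ratio of 0.80, by a rule of 1.5-fold in both mean and median that called 4.66% of all nuclear genes tested higher. The choice of cells largely fixes these calls too, since the copies follow the mt- rows behind that choice. Whether their counts stem from the nuclear or the mitochondrial sequence cannot be told apart where the bases are identical. Counts on the 11 copies added a median of 0.659 percentage points to the share in high-share and 0.371 in low-share cells, and the shares with and without them had a Pearson correlation of 0.998 over the 96 cells.

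Nuclear genes were compared on CPM over the 14427 genes that reached a count of 10 in 10% of the cells or more. A gene was called higher or lower when the mean and the median CPM, each with a pseudocount of 1, both differed by at least 1.5-fold in the same direction, and log2 ratios quoted are of mean CPM + 1, high-share over low-share. By this rule 673 genes (4.66%) were higher and 837 (5.8%) lower in high-share cells, and the median log2 ratio over all genes was 0.0047. Of the called genes, 2 of 673 and 0 of 837 had groups that did not overlap. Both are the chromosome 1 copies named above, so every other called gene had cells of one group within the range of the other. With size factors from the ERCC spike-in in place of CPM, 446 genes were higher and 1143 lower. When cells were chosen by mitochondrial counts per ERCC count, 860 were higher and 436 lower. Spearman correlations of CPM with the share over 96 cells lay between -0.49 and 0.88 for all genes tested.

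DNA replication and S-phase genes were lower in high-share cells. Of 30 measured members of the list, 15 were lower and 0 higher, beside 5.8% lower and 4.66% higher of all genes tested. Of the 30, 29 had a log2 ratio below 0, and the median was -0.64, beside 0.0047 over all genes. Without cell 4-2, 13 were lower and the median was -0.58. Mcm3, a subunit of the helicase that unwinds DNA at replication forks, ranged from 1.04 to 495 CPM in high-share cells (median 138) and from 26.0 to 741 CPM in low-share cells (median 402). The log2 ratio was -1.18, and 3 of 24 high-share cells lay above the median of the low-share cells. Its partner Mcm7 had medians of 109 and 294 CPM and a log2 ratio of -1.16. The ranges of both genes overlapped between the groups. Uhrf1, which helps to copy DNA methylation behind the fork, had a log2 ratio of -1.43. Ccne1, the cyclin E that acts at entry into S phase, had one of -1.64. The uracil glycosylase Ung, with the largest difference of the list, had medians of 0.202 and 9.21 CPM and a log2 ratio of -1.67. Members that were not called included Pcna (-0.50), the sliding clamp of DNA polymerase, and Rrm2 (-0.40), which makes deoxyribonucleotides.

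The promoters of several of these genes are known to bind E2F factors. The 4 forms of the E2F site TTTGGCGC, TTTCCCGC, TTTGGCGG and TTTCGCGC, were searched on both strands in RefSeq promoters of GRCm38.p6, from 250 bases before to 50 after the first start listed for a gene. A form was found for 7 of the 13 lower S-phase genes with a promoter in the table, for 9 of 25 measured S-phase genes, for 4.71% of the promoters of tested genes and for 2.42% of all 27025 promoters. Stretches of 50 bases are shown for 4 of the 7, with the forms in capitals, since they belong to replication genes that were lower together. They lie at chr1:20820265-20820314 (minus strand), chr5:138172020-138172069 (minus strand), chr8:75109335-75109384 (plus strand) and chr1:128359787-128359836 (minus strand). In Mcm5 and Mcm6 forms of the 2 strands overlap.
Mcm3: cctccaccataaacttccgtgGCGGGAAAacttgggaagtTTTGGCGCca
Mcm7: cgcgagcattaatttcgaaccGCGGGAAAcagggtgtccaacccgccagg
Mcm5: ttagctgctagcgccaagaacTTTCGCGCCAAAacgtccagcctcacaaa
Mcm6: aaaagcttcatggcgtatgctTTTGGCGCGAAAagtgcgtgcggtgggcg
A match is a run of letters and no measured binding site. Over the 837 lower genes, 51 of the 659 with a promoter in the table held a form, and over the 673 higher genes 17 of 532.

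Sisters that the choice of cells did not use were in the same order for S-phase genes. The S-phase score is the mean log2(CPM + 1) over the 30 members. It had a median of 5.42 (1.82 to 7.19) in high-share cells and 6.60 (2.40 to 7.53) in low-share cells. Sisters that were in neither group had a median of 5.48 for the 7 sisters of high-share cells and 6.52 for the 15 sisters of low-share cells, with ranges of 2.05 to 7.01 and 5.60 to 7.76. The mitochondrial shares of these sisters had medians of 2.09% and 1.85%. Sisters resembled each other in the S-phase score, with an intraclass correlation of 0.751. The order of these sisters is therefore not independent of that of the chosen cells. Within pairs the sister of higher share had the lower score in 32 of 48 pairs, with a median difference of -0.128. The score had a Spearman correlation of -0.38 with the share over 96 cells, -0.30 over the 48 cells in neither group and -0.45 over the means of 48 pairs.

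G2 and mitosis genes did not follow the S-phase genes. Of 25 measured members, 4 were higher and 0 lower, beside 4.66% and 5.8% of all genes tested, and the median log2 ratio was 0.32. The called members were Ube2c (1.21), a ubiquitin-conjugating enzyme of the anaphase-promoting complex, Hmmr (0.85), Cenpf (0.61) and Bub1 (0.59), a kinase of the spindle checkpoint. Ube2c ranged from 0.128 to 727 CPM in high-share cells (median 148) and from 1.03 to 587 CPM in low-share cells (median 68.8), so that the groups overlapped over most of their range. Mki67, a general marker of cycling cells, had medians of 394 and 447 CPM and was not called. Its Spearman correlation with the share was -0.0014, and that of the score of all 25 was 0.02. The score of these genes had a wider spread in high-share cells (SD 2.53) than in low-share cells (SD 1.55). In 3 high-share cells, 0 low-share cells and 3 of the others Mcm3 was under 10 CPM, and for Mki67 these numbers were 3, 1 and 2. This limit of 10 CPM was chosen after the values were seen.

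**Figure D3:**
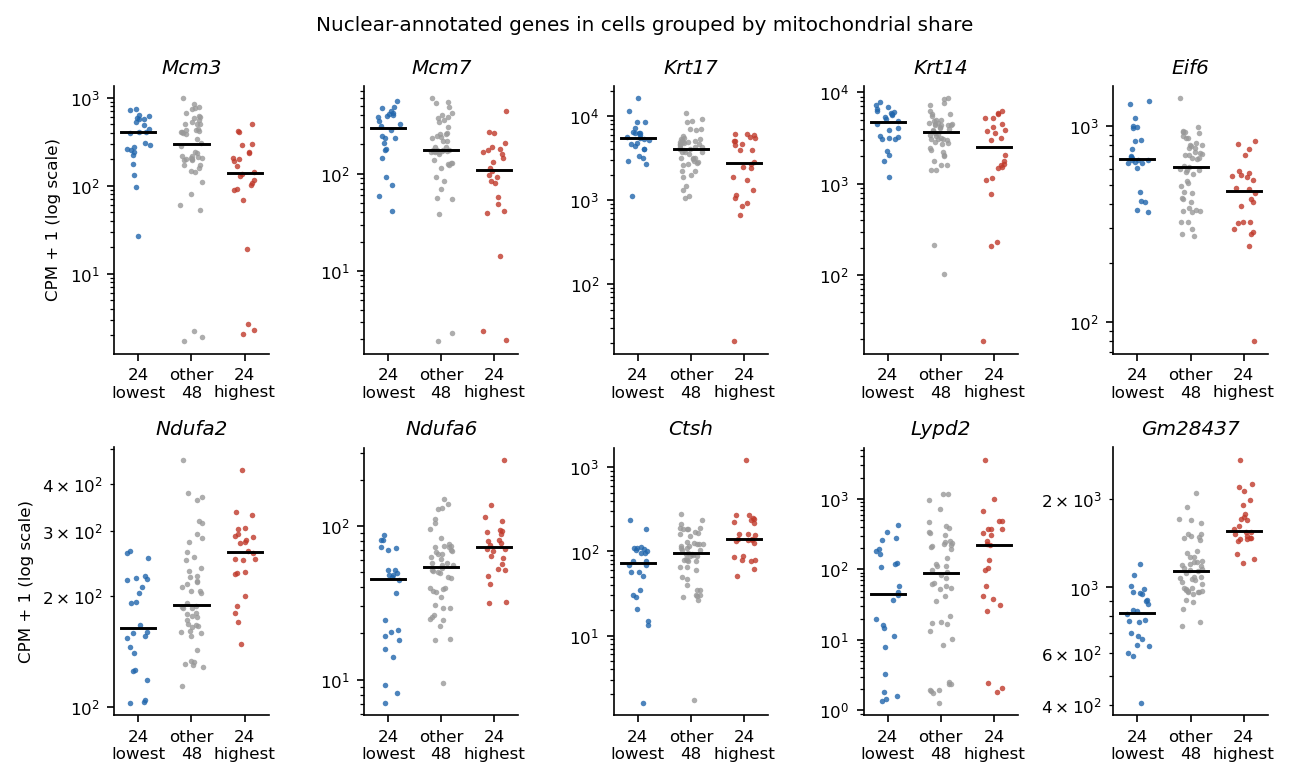
CPM + 1 on a log scale for 10 genes, 1 point per cell, in the 24 lowest, the other 48 and the 24 highest cells by mitochondrial share, with black lines at the medians of CPM + 1. Medians of the 24 highest cells lie below those of the 24 lowest for Mcm3, Mcm7, Krt17, Krt14 and Eif6 and above them for Ndufa2, Ndufa6, Ctsh, Lypd2 and Gm28437, and the outer groups separate only for Gm28437.

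Wound-response keratins, intermediate filament proteins that epithelial cells make after injury, were lower in high-share cells for 4 of 4 members, with a median log2 ratio of -0.93. Of all genes tested 5.8% were lower. Krt17 ranged from 19.9 to 6156 CPM in high-share cells (median 2766) and from 1115 to 16237 CPM in low-share cells (median 5417), a log2 ratio of -0.87. Krt16 had medians of 7.20 and 69.9 CPM and a log2 ratio of -1.67. Most high-share cells lay below the low-share median for both, 19 of 24 for Krt17 and 22 of 24 for Krt16. Krt6a and Krt6b had log2 ratios of -0.91 and -0.96, and as close paralogs they can exchange reads. Between 24 pairs of high and 24 of low mean share 0 of the 4 were called, with a median of -0.27. Without cell 4-2 all 4 were still lower, with a median of -0.87. The sisters in neither group did not carry this difference. The keratin score had medians of 8.67 in high-share and 9.91 in low-share cells, 9.28 in the 7 sisters of high-share cells and 9.52 in the 15 sisters of low-share cells. Its Spearman correlation with the share was -0.48 over 96 cells and -0.54 over the means of 48 pairs. Within pairs the sister of higher share had the lower keratin score in 30 of 48 pairs and the higher one in 18.

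Among 21 basal cell identity genes 1 was lower, which is near the 5.8% lower of all genes tested. It was Krt14 (log2 ratio -0.68), with medians of 2545 CPM in high-share and 4704 CPM in low-share cells. Its partner keratin Krt5 had medians of 2094 and 3509 CPM and a log2 ratio of -0.29, and Trp63, which encodes the basal transcription factor p63, medians of 158 and 260 CPM and -0.33. Neither was called, and the median of the list was -0.15. Squamous differentiation genes were lower for 7 of 21 measured members and higher for 0, beside 5.8% and 4.66% of all genes. Their median was -0.68 and turned to 0.71 when cells were chosen by mitochondrial counts per ERCC count. The lower genes included the cross-linking enzyme Tgm1 (-2.15), Serpinb2 (-1.72), Sbsn (-1.08) and Krt10 (-0.68). The others were the small proline-rich genes Sprr2a1 (-0.85), Sprr2a2 (-0.89) and Sprr2a3 (-0.61), which are near-identical copies. Without cell 4-2 the same number of genes was lower, the median was -1.02, and Sprr2a1, Sprr2a2 and Sprr2a3 had log2 ratios of -2.42, -2.46 and -1.76. The squamous score, a mean of log2(CPM + 1), was 6.26 in low-share cell 46-1. This was the highest of the low-share cells, whose median was 2.93. Tgm1 reached 1784 CPM in a low-share cell, against a low-share median of 17.3 CPM. Sprr2f had a log2 ratio of 6.87 with all cells and -0.17 without cell 4-2, and its medians were 0 in both groups, so that it was not called. Cnfn, with a log2 ratio of -5.45, was not called because its medians of 0 and 0.392 CPM differed by less than the limit.

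Nuclear genes of the respiratory chain and ATP synthase had log2 ratios slightly above 0. Of 83 measured subunits of complexes I to V, 72 had a log2 ratio above 0 and the median was 0.19, while 2 were called higher and 0 lower. Both shares lie below the 4.66% higher and 5.8% lower of all genes tested. With ERCC size factors, which move the median of all genes by -0.11, the median of these subunits was 0.05. Complex I, which takes electrons from NADH, had 33 of 37 nuclear subunits above 0 and a median of 0.18. Complex III had a median of 0.19, complex IV one of 0.22 with 15 of 15 above 0, and ATP synthase one of 0.20. Complex II, the one complex with no mitochondrially encoded subunit, had a median of 0.06 over 4 genes, which turned to -0.07 with ERCC size factors. The called genes were the complex I subunits Ndufa6 (log2 ratio 0.97) and Ndufa1 (0.67). Ndufa2, another subunit, was not called, with medians of 262 CPM (147 to 437) in high-share and 162 CPM (102 to 263) in low-share cells. It had the highest Spearman correlation with the share of the genes outside the mitochondrial copies, 0.53, and 23 of 24 high-share cells lay above the low-share median. Among complex IV subunits of at least 5 CPM, Cox7a2l (0.37) and Cox8a (0.36) had the largest log2 ratios, and neither was called.

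The score of the 83 subunits, again a mean of log2(CPM + 1), had a median of 7.27 (6.88 to 7.57) in high-share and 7.06 (6.74 to 7.40) in low-share cells. Of the high-share cells 19 lay above the median of all 96, and of the low-share cells 7. Its Spearman correlation with the share was 0.45 over 96 cells, 0.42 over the 48 cells in neither group and 0.50 after the mean of each set was subtracted. In 33 of 48 pairs the sister of higher share had the higher score. The sisters in neither group showed no such order, with medians of 6.97 for the 7 sisters of high-share cells and 7.07 for the 15 sisters of low-share cells.

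**Figure D4:**
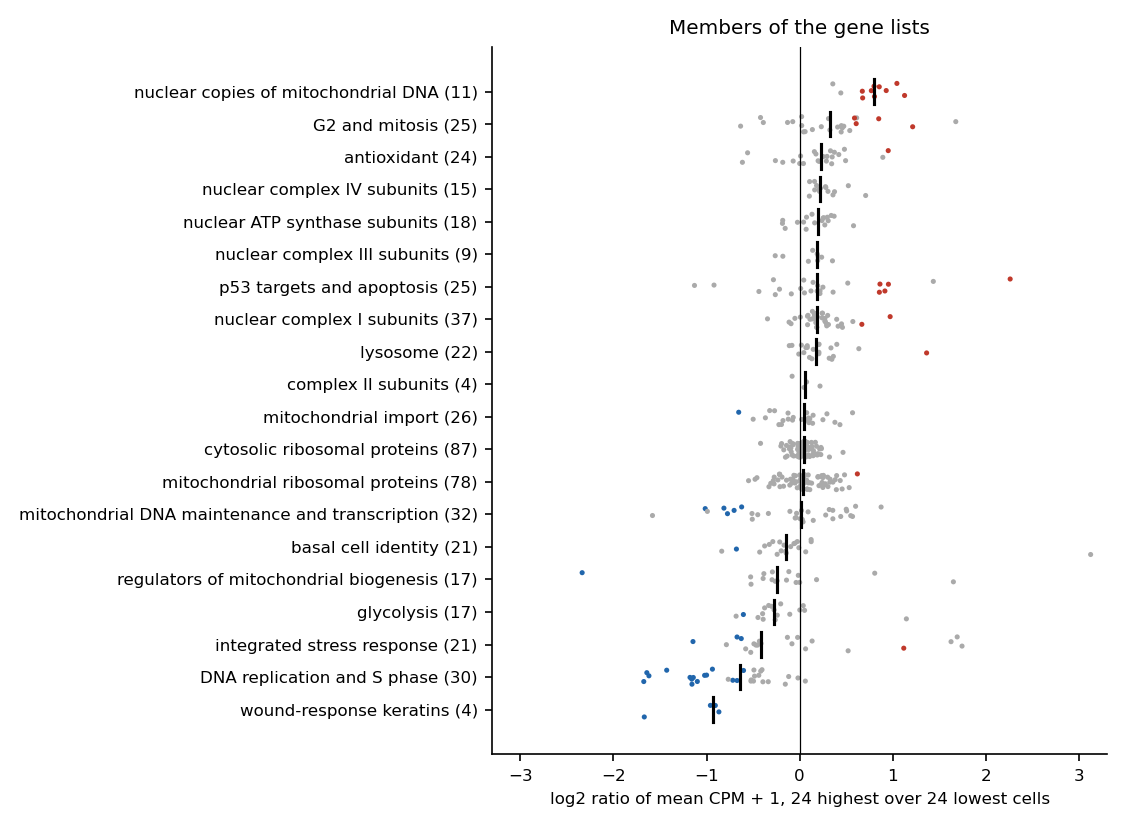
Log2 ratio of mean CPM + 1, 24 highest over 24 lowest cells, for each measured member of 20 gene lists, with the number of members in parentheses. Red points were called higher, blue points lower and grey points neither, and black bars mark list medians; the S-phase list and the wound-response keratins lie below 0 and the respiratory chain lists slightly above it.

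Genes for the upkeep and transcription of mitochondrial DNA were not higher in high-share cells as a set. Of 32 measured members 0 were higher and 5 lower, beside 4.66% higher and 5.8% lower of all genes tested. Their median was 0.01, or -0.19 with ERCC size factors. The lower genes were the RNA-processing factors Fastkd3 (-1.01), Elac2 (-0.81) and Fastkd1 (-0.62, not called without cell 4-2 at -0.57), the helicase Twnk (-0.70) and the nuclease Mgme1 (-0.78). Tfam, which packages mitochondrial DNA and starts its transcription, had medians of 38.3 and 40.0 CPM and a log2 ratio of 0.03. Polrmt, the mitochondrial RNA polymerase, had medians of 6.82 and 1.64 CPM, with cells of both groups at 0, and was not called. Of 17 regulators of mitochondrial biogenesis 1 was lower, which is near the 5.8% of all genes. This was the coactivator Ppargc1b (-2.34), whose median was 0 CPM in high-share and 5.84 CPM in low-share cells. The median of the regulator list was -0.24. It turned to 0.17 between sisters and to 0.14 between the 12 highest and 12 lowest cells. Ppargc1a had medians of 0 in both groups. Mitochondrial ribosomal proteins had 1 of 78 members higher, Mrpl48 (0.62), and a median of 0.04, cytosolic ribosomal proteins 0 of 87 called and a median of 0.04, and import genes 1 of 26 lower, Tomm34 (-0.65), and a median of 0.05. The called shares of these ribosomal and import lists lie below the 4.66% higher and 5.8% lower of all genes. Without cell 4-2 neither Mrpl48 (0.48) nor Tomm34 (-0.62) was called. With ERCC size factors these medians were -0.08, -0.14 and -0.08. Of 13 measured fusion and fission genes 2 were lower, the fusion GTPases Mfn1 (-0.65) and Mfn2 (-0.96), and 1 was higher, Mief2 (1.73). Of all genes tested 5.8% were lower and 4.66% higher. In this list 9 genes had a log2 ratio above 0 and 4 below it. The list median was 0.21, and it turned to -0.08 in the 48 cells in neither group.

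In other lists part of the members were called, beside 4.66% higher and 5.8% lower of all genes tested. Of 25 p53 targets and apoptosis genes 5 were higher and 0 lower, namely Trp53inp1 (2.26), Casp9 (0.95), Zmat3 (0.92), Ccng1 (0.86) and the cell cycle inhibitor Cdkn1a (0.86), with a median of 0.19 that turned to -0.05 with ERCC size factors. Between 24 and 24 pairs 1 was higher and 2 were lower, with a median near 0, and in the 48 cells in neither group 0 were called, with a median of -0.09. Cdkn1a ranged from 0.433 to 2757 CPM in high-share cells (median 291) and from 1.35 to 2169.9 CPM in low-share cells (median 98.5). Of 12 secretory and hillock genes 3 were higher: Lypd2 (1.90), Aqp4 (1.45), a water channel, and Cldn4 (0.79), a tight junction protein. The list median of 0.21 turned to -0.03 between the 2 highest and 2 lowest cells of each set and to -0.06 between sisters. It was 0.33 between 24 and 24 pairs and 0.34 in the 48 cells in neither group. Lypd2 had medians of 224 and 44.4 CPM. Without cell 4-2 Cldn4 was not called (0.39), and Lypd2 had a log2 ratio of 1.25. Of 18 xenobiotic and airway enzymes 2 were higher, Adh7 (1.03) and Cbr2 (0.91), and the list had a median of 0.59, which was 0.37 without cell 4-2 and turned to -0.21 when cells were chosen by mitochondrial counts per ERCC count. In the integrated stress response list 3 of 21 were lower, the amino acid transporter Slc7a5 (-1.15), Shmt2 (-0.67) and Asns (-0.63), and 1 was higher, Cebpb (1.12). Asns was not called without cell 4-2 (-0.58). Glycolysis had 13 of 17 members below 0, a median of -0.27 and 1 lower member, Pfkp (-0.60), which was not called without cell 4-2 (-0.54). The median of this list turned to 0.08 in the 48 cells in neither group and to 0.06 between sisters. Malat1, a nuclear RNA, had medians of 925 and 695 CPM and was not called.

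The called genes of at least 20 mean CPM with the largest ratios were mostly counted in part of the cells. Ces2e, a carboxylesterase, had medians of 21.8 CPM in high-share and 0.197 CPM in low-share cells and a log2 ratio of 2.37, with cells of both groups at 0. Tsku (1.91) and Znrf1 (2.00) had 20 and 19 of 24 high-share cells above the low-share median. Fst, the activin antagonist follistatin, had the lowest ratio (-2.91), with medians of 1.26 and 25.9 CPM. Gls2 (-2.17), a mitochondrial glutaminase, had 21 of 24 high-share cells below the low-share median, and Nsun5 (-1.85), an rRNA methyltransferase, 23 of 24.

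Genes ranked with the share more evenly than these. Eif6, a factor of ribosome assembly, had the lowest Spearman correlation (-0.49), followed by Krt17, Krt16 and Mcm3 (all -0.45). Eif6 ranged from 78.6 to 832 CPM in high-share cells (median 466) and from 361 to 1340.3 CPM in low-share cells (median 678). It was not called, as its median differed by less than 1.5-fold. Fscn1, an actin-bundling protein, had a correlation of -0.43 and medians of 347 and 584 CPM. It was lower with all cells (-0.64) and not called without cell 4-2 (-0.58). At the other end, behind the mitochondrial copies, Ndufa2 (0.53) and Ndufa6 (0.52) were followed by Ctsh (0.50), a lysosomal protease, and Tpt1 (0.46), an abundant growth-associated protein. Ctsh had medians of 140 CPM (50.4 to 1235) and 72.0 CPM (0.582 to 234), and 22 of 24 high-share cells lay above the low-share median.

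The choice of cells decided part of these results. When the 2 highest and the 2 lowest cells of each set were compared, so that every set entered both groups equally, 881 genes (6.11%) were higher and 611 (4.24%) lower. Of the 30 S-phase genes 11 were then lower, and of the wound-response keratins 4 of 4. Of the G2 and mitosis genes 16 of 25 were higher, with a median of 0.79, against 4 of 25 in the comparison over all sets. The score of these 25 genes had a Spearman correlation of only 0.01 with the share over all 96 cells after the mean of each set was subtracted. The sister of higher share had the higher score in 24 of 48 pairs. When the cells were instead chosen by mitochondrial counts per ERCC count, which kept 15 of the 24 high-share and 13 of the 24 low-share cells, 18 of the 25 were higher, 11 S-phase genes were lower and 0 of the 4 keratins were called, with a keratin median of -0.26. When the higher was compared with the lower sister of all 48 pairs, 156 genes (1.08%) were higher and 173 (1.2%) lower, and 0 S-phase genes were called, with a median of -0.14. Of the 4 keratins 1 was then lower, with a median of -0.31, and the subunits of complexes I to V had a median of 0.06.

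The 48 cells in neither group, split into the upper and lower 24 by share, gave 500 higher (3.47%) and 584 lower genes (4.05%). Of the 673 and 837 genes called in the outer cells, 55 and 79 were called in the same direction there, and 57.8% and 58.5% had the same sign. The S-phase list had a median of -0.21 with 1 member higher and 0 lower, and the nuclear respiratory chain subunits one of 0.10 with 67 of 83 above 0. The wound-response keratins had a median of 0.16, with 3 of 4 above 0. Their score nevertheless had a Spearman correlation of -0.34 with the share over these 48 cells, so that here means and ranks differed in direction. Cell 4-1, the sister of cell 4-2, was in the upper part of this split with a share of 2.00%. It had the highest keratin score (12.4) and the highest squamous score (7.01) of all cells. The part of cell 4-1 in these list medians was not tested.

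**Figure D5:**
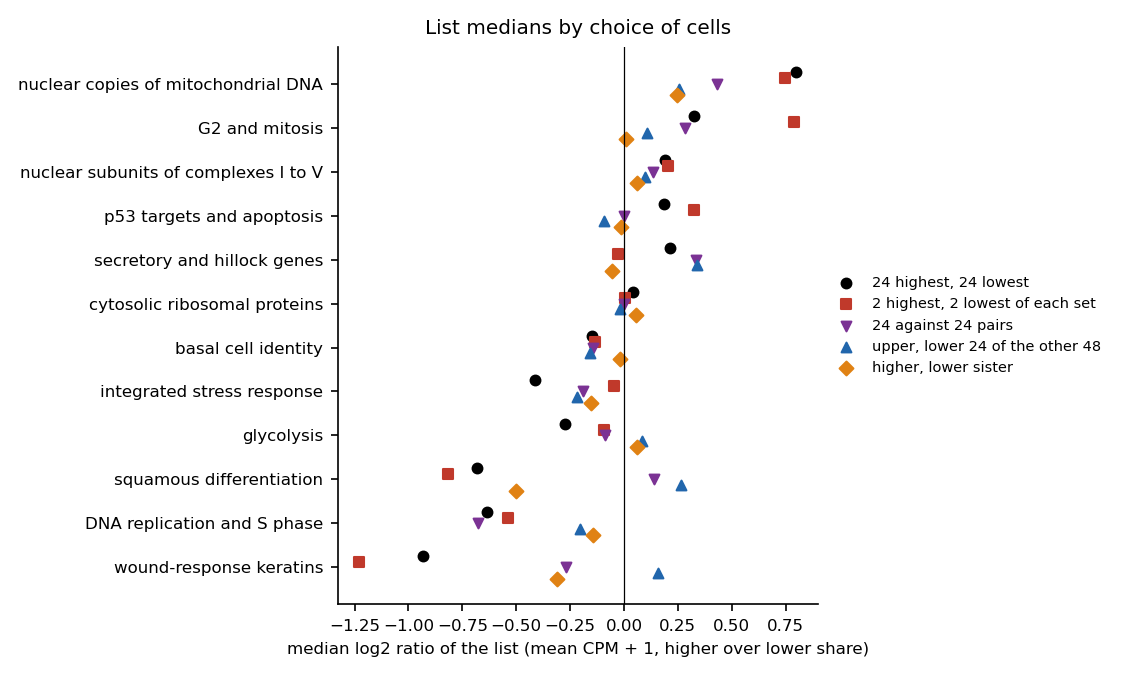
Median log2 ratio of 12 gene lists, higher over lower mitochondrial share, under 5 choices of cells, each with its own symbol. Under all 5 the S-phase list lies below 0 and the nuclear subunits of complexes I to V above 0. Both are smaller between sisters and in the 48 cells in neither group. The wound-response keratins and the squamous, secretory, p53, glycolysis and cytosolic ribosomal lists change sign.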

How the data were processed

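Single HBC daughter cells were sequenced by the authors, who trimmed reads with Trimmomatic 0.39, aligned them with STAR 2.7.11a to GRCm38 with Ensembl release 100 and ERCC sequences, and counted them with StringTie 2.2.1. The authors deposited unnormalized counts, as whole numbers for each gene in each cell, and TPM tables, used here only for an alternative share. How reads matching several loci were counted is not given in the sources used here.

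The share was the sum of mt- rows over all non-ERCC rows, and CPM used the same sum. Reads per cell on genes ranged from 29454150 to 44849003. Cells are 1 sample, so no test was run. Groups were described by lowest, median and highest values. The ratio calculation was tested on simulated data. Python 3.11.15 with pandas 2.3.3 and scipy 1.17.1, and for alternative scalings R 4.3.3 with edgeR 4.0.16 and DESeq2 1.42.0, were used.

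The cells and gene lists were chosen with earlier results of these data known. Named were the 15 called genes of largest ratio in each direction (mean CPM of at least 20 in the higher group), up to 4 members per list (5 CPM in either group), 10 genes of highest and 10 of lowest Spearman correlation, and fixed genes; not all appear in the text, and other called or uncalled list members named were chosen after their values were seen. The duplicate symbol Aldoa was counted once.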

Additional observations from a re-analysis of the deposited data

Results flagged for a closer look

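In 2 of the 12 sets of 8 cells the highest mitochondrial share stood apart from the others of its set. In set 1 cell 4-2 had 3.84%, and its gap to the next cell was 0.675 of the range of the set. In set 12 the highest cell had 2.63%, with a gap of 0.570 of the range, and the limit for 8 values is 0.526. By chance about 1 in 20 such groups passes this limit.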

How the results depend on the processing

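All cells are 1 sample and no error between samples was had, so sizes and counts are descriptions. Sisters form pairs and were compared within pairs as values, with no paired test, since no result comes from a test. Higher and lower genes numbered 673 and 837, and, with 1 set of 8 cells left out at a time, 635 to 848 and 788 to 928. They numbered 259 and 367 with a pseudocount of 10, 194 and 222 at 2-fold, 1794 and 1724 on the mean alone, 1305 and 1296 between 12 and 12 cells, 279 and 350 between 48 and 48, and 156 and 173 between sisters. Higher genes were 446 with ERCC size factors, which moved the median of all genes by -0.11, lower genes 436 for cells chosen by mitochondrial counts per ERCC count and 498 between 24 and 24 pairs of sisters.

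Some list medians depended on the cells chosen. The mitochondrial copies had 0.46 by mitochondrial counts per ERCC count, 1.09 between 12 and 12 cells, 0.53 between 48 and 48, 0.43 between pairs, 0.25 between sisters and 0.25 in the 48 cells in neither group. The squamous list turned to 0.71 by mitochondrial counts per ERCC count, 0.14 between pairs and 0.26 in the 48 cells, the wound-response keratins to 0.16 in the 48 cells, and the xenobiotic list to -0.21 by mitochondrial counts per ERCC count. Of 8 measured interferon response genes 3 were higher and 0 lower, beside 4.66% and 5.8% of all genes tested. Their median was 0.59 and turned to -0.42 between sisters, where Cd68 turned to -0.11. Smaller medians turned too, among them those of glycolysis (0.08 in the 48 cells, 0.06 between sisters) and of biogenesis regulators (0.17 between sisters, 0.14 between 12 and 12 cells). The S-phase median stayed between -0.92 and -0.14 and that of complexes I to V between 0.05 and 0.28 over the 35 alternatives run. The intraclass correlation of the share was 0.39 after the mean of each set was subtracted. The cause of these shifts was not tested.

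Log2 ratios of named genes that turned in sign are given by choice of cells. By mitochondrial counts per ERCC count they were Serpinb2 0.85, Krt16 0.52, Cbr2 -0.22, Fst 0.13, Tgm1 0.71, Twnk 0.055, Mgme1 0.053, Sprr2a1 0.78, Sprr2a2 0.75, Sprr2a3 0.69, Adh7 -0.88 and Sbsn 1.47. Between sisters they were Cenpf -0.13, Cd68 -0.11, Cbr2 -0.47, Pfkp 0.061, Cdkn1a -0.089, Twnk 0.034, Zmat3 -0.11, Sprr2a1 0.021, Sprr2a2 0.034, Adh7 -0.013, Cldn4 -0.046 and Ung 0.018. In the 48 cells in neither group they were Serpinb2 0.61, Ccng1 -0.48, Elac2 0.39, Krt16 0.26, Pfkp 0.33, Fastkd3 0.22, Krt6b 0.23, Krt6a 0.090, Ppargc1b 0.86, Fastkd1 0.28, Mgme1 0.15, Zmat3 -0.057, Sprr2a3 0.26, Adh7 -1.003, Casp9 -0.056, Sbsn 0.48, Slc7a5 0.37, Ung 0.21 and Krt10 0.95. Between 24 and 24 pairs they were Ccng1 -0.0017 and Sbsn 0.027. Also turned were Sprr2a3 0.050 between 12 and 12 cells and Krt10 0.086 between 48 and 48. Leaving out cell 4-2 and adding the mitochondrial copies to the share were chosen after seeing the data, and gave 648 and 785, and 726 and 760 genes.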

Other observations

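Among 4 measured markers of other olfactory cells the neuronal tubulin Tubb3 (-1.64) and the transcription factor Sox11 (-1.21) were lower. Of 5 immune markers 1 passed the filter, the macrophage marker Cd68, which was higher (1.18). Without cell 4-2 it was not called (0.59), and Adgre1 and C1qa were at 0 in both groups. Of 22 measured lysosome genes 1 was higher, Ctsh, which is near the 4.66% of all genes. In that list 19 had a log2 ratio above 0 with a median of 0.17, against 14 of 22 without cell 4-2 and 11 of 22 in the 48 cells in neither group.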
